A study of Drosophila melanogaster with 6 samples.

Results

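Semaphorins, plexins and the plexin effector Mical were followed in pupal brains of Drosophila melanogaster with an altered Tet gene. The members were every row of the deposited count table named Sema1a, Sema1b, Sema2a, Sema2b, Sema5c, PlexA, PlexB or Mical. All 8 names were found among the 17807 genes of the table, and all 8 passed the filter on low counts that left 11198 genes to test. The study measured poly(A) RNA of whole brains taken 24 h after puparium formation, with a strand-marking dUTP protocol, in 3 TetAXXC and 3 WT libraries. TetAXXC flies carry a Tet gene whose CXXC zinc finger, a DNA-binding domain, was altered by CRISPR/Cas9 cutting and repair from a donor template in a nos-Cas9 stock, and the DsRed marker was then excised with a piggyBac enzyme. WT is given as wild type, and its stock is not given in the sources used here, so a difference of genetic background cannot be told apart from the Tet change. Flies of both genotypes were kept at 25 °C, and the labels describe 30 brains per genotype and separate biological replicates.

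Semaphorins are a family of secreted and membrane-bound proteins that steer growing axons and dendrites, and plexins are their receptors on the growth cone. In Drosophila, PlexA is the receptor of the transmembrane semaphorins Sema1a and Sema1b, and PlexB that of the secreted Sema2a and Sema2b. Mical binds PlexA and oxidises actin filaments, which takes the growth cone's skeleton apart. Sema1a can also act in the other direction, as a receptor on the neuron that carries it, for instance on dendrites of olfactory projection neurons. At the stage sampled, neurons of the pupal brain are pruning larval branches and growing adult ones.

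Library totals lay between 17861742 and 19521285 counts, and a member had between 2165 and 15585 counts in a library, for which counting error alone is a coefficient of variation of 2.15% to 0.801%. For Sema5c, the least counted, the spread between libraries had a coefficient of variation of 3.50% in TetAXXC and 2.71% in WT. Tet itself was counted at 856, 798 and 941 CPM (read counts brought to 1 common library total, with TMM scaling) in the TetAXXC libraries and at 852, 680 and 839 CPM in the WT libraries. The groups overlapped, although each TetAXXC library was above the WT library of the same replicate number, and the log2 difference was 0.13 (SE 0.10, edgeR adjusted p = 0.499). Tet passed the threshold once a trend with gene length was taken out of each library, at 0.16 with an edgeR adjusted p of 0.0487. Counts per gene do not show the edited domain. The neuronal gene elav and the glial gene repo were counted in every library. Of 14 testis genes looked for, 10 had enough counts to test, and all 10 had log2 fold changes above 0. Of these, 7 had an edgeR adjusted p under 0.05, beside 12.1% of all genes tested that were called higher in TetAXXC. Summed levels of the 14 were 201 to 559 CPM in TetAXXC and 53.7 to 100.3 CPM in WT. Most of each WT sum was bol, at 59.4, 32.8 and 57.5 CPM in WT replicates 1 to 3. Its log2 fold change was 0.96 (edgeR adjusted p = 0.0570). Of the 14, sa was at 0 in WT replicates 2 and 3 and bam at 0 in WT replicate 2. Of 6 glial genes, wrapper, moody and alrm were lower in TetAXXC, at -0.20, -0.24 and -1.10 on the log2 scale (edgeR adjusted p = 0.0170, 0.0167 and 0.00470). These 3 of 6 stand beside 3.17% of all genes tested that were called lower in TetAXXC. The pan-glial repo was at -0.0014 and did not pass. Nor did nrv2 and gcm pass, at 0.063 and 0.56, but both had every TetAXXC library above every WT library. Groups stood apart in 5 of the 6 glial genes, beside 32.7% of all genes tested. The 6 glial genes summed to 662 to 689 CPM in TetAXXC and 739 to 754 CPM in WT. In bulk RNA, fewer cells of a type and less RNA per cell cannot be told apart.

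No difference between TetAXXC and WT brains was detected in any of the semaphorin, plexin or Mical genes. Of the 8 genes, 0 had an edgeR adjusted p under 0.05, 0 had an unadjusted p under 0.05, and 0 passed with DESeq2 or limma-voom. Among all 11198 genes, 2402 passed with DESeq2 and only 130 with limma-voom, so 0 of 8 under limma-voom says little. When same-numbered libraries were paired in the edgeR fit (the replicate block), 0 of the 8 had an adjusted p under 0.05, beside 2362 of all genes tested. In that fit 1 of the 8, PlexB, had an unadjusted p under 0.05, as did 3414 of the 11198 genes tested. The values that follow are from the fit without the block. Among all 11198 genes tested, 15.2% passed the adjusted threshold and 26.4% had an unadjusted p under 0.05. In 0 of the 8 genes did the TetAXXC libraries lie wholly above or below the WT libraries, which was the case in 32.7% of all genes tested. Among the 6320 more abundant genes, those averaging 4 log2 CPM or more, the range in which all 8 lie, 7.61% passed the adjusted threshold in the same fit (3.02% higher and 4.59% lower in TetAXXC) and 25.9% had groups that did not overlap. The log2 fold changes ran from -0.17 for PlexB to 0.04 for Sema2b, 5 below 0 and 3 above. Their median was -0.04, against 0.0041 over all genes tested and -0.019 over the abundant genes. Of the 6320 abundant genes, 3671 were below 0. The 95% confidence intervals of the 8 genes, as folds of TetAXXC over WT, were 0.75 to 1.30 for Sema1a and 0.74 to 1.07 for PlexB, and lay within 0.85 to 1.14 for the other 6. Changes inside a gene's own interval were not excluded at this number of libraries.

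**Figure D1:**
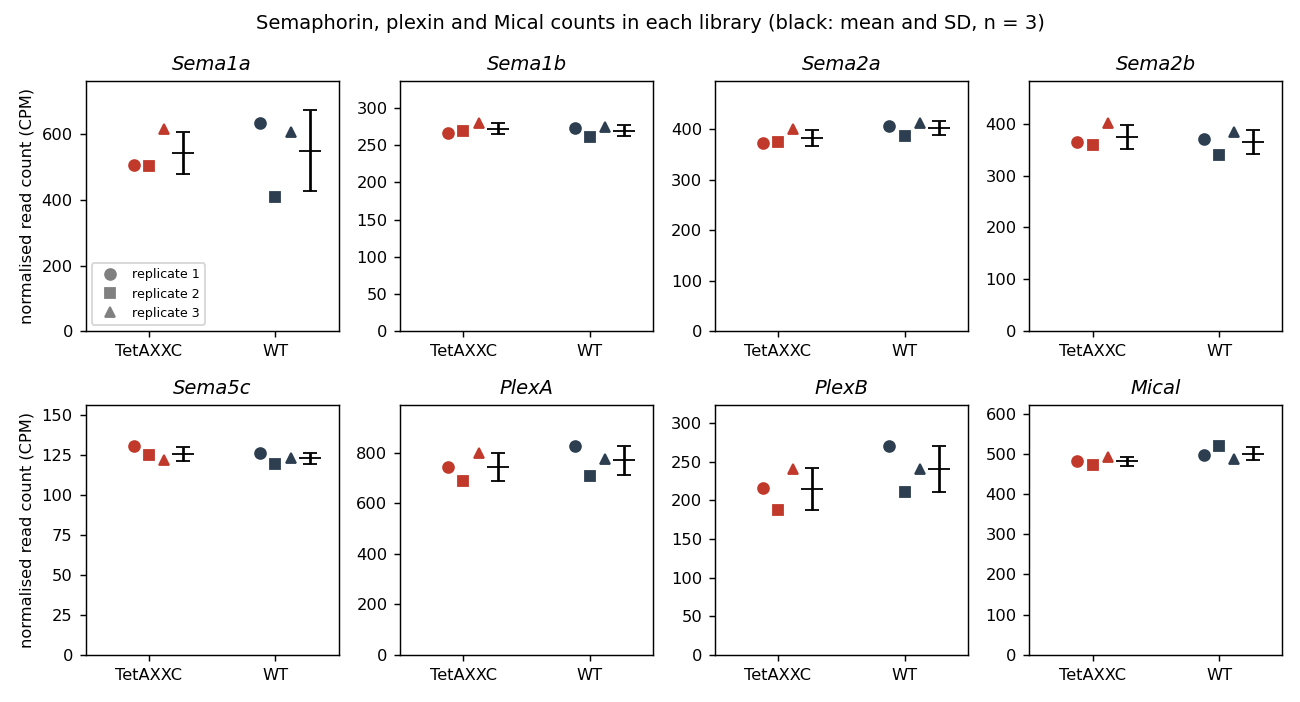
Normalised read counts (CPM, axes from 0) of the 8 genes in the 3 TetAXXC and 3 WT libraries, with the mean and SD of each group in black. The groups overlap in each panel, and Sema1a in WT replicate 2, at 408 CPM, lies farthest from the rest of its group.

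The transmembrane semaphorin Sema1a (FBgn0011259, chromosome 2L, 8542147 to 8672041, plus strand) is spread over 129895 bases, of which 7.84% are exon, and is annotated with 7 transcripts that encode proteins of 817 to 1131 residues. It was counted at 507, 503 and 615 CPM in TetAXXC replicates 1 to 3, and at 635, 408 and 606 CPM in WT replicates 1 to 3. The highest and the lowest of the 6 values were both in WT, and the TetAXXC values lay between them. The means were 542 ± 63.7 CPM in TetAXXC and 550 ± 124 CPM in WT (SD, n = 3 each), which is -0.02 on the log2 scale (standard error, SE, 0.17, edgeR adjusted p = 0.965). Its interval was the widest of the 8, from 0.75-fold to 1.30-fold. The direction turned with the libraries used, from -0.20 without WT replicate 2 to 0.09 without WT replicate 1 on the log2 scale.

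Sema1b (FBgn0016059, chromosome 2R, 17672839 to 17683499, minus strand) is the compact paralog of Sema1a, with 10661 bases and a single annotated protein of 770 residues. It had 267, 269 and 280 CPM in the TetAXXC libraries and 273, 261 and 274 CPM in the WT libraries. These were among the most even values of the family, with the highest TetAXXC library 1.05 times its lowest, and the same in WT. TetAXXC over WT was 0.01 on the log2 scale (SE 0.04, edgeR adjusted p = 0.887), with an interval from 0.95-fold to 1.07-fold.

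The secreted semaphorins are neighbours, with Sema2b (FBgn0264273, chromosome 2R, 16386524 to 16431758, plus strand) and Sema2a (FBgn0011260, chromosome 2R, 16500178 to 16533459, plus strand) separated by 68.4 kb. In the embryonic nervous system Sema2a is known to repel axons and Sema2b to attract them, both through PlexB. Sema2a was counted at 372, 374 and 401 CPM in TetAXXC and at 406, 387 and 413 CPM in WT. Of the TetAXXC libraries, replicates 1 and 2 lay below every WT library, and replicate 3 lay among them. Each TetAXXC library was also below the WT library of the same replicate number. The means were 382 ± 16.1 CPM in TetAXXC and 402 ± 13.5 CPM in WT (SD, n = 3 each), which is -0.07 on the log2 scale (SE 0.05, edgeR adjusted p = 0.409, and 0.238 with the replicate block, where the unadjusted p was 0.0853). Sema2b was counted at 364, 359 and 402 CPM in TetAXXC and at 371, 340 and 384 CPM in WT. Here the highest value was in TetAXXC and the lowest in WT, and TetAXXC over WT was 0.04 on the log2 scale (SE 0.06, edgeR adjusted p = 0.789).

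Sema5c (FBgn0284221, chromosome 3L, 12067511 to 12081830, minus strand) encodes a transmembrane semaphorin with thrombospondin repeats, which in the follicle cells of the ovary acts in collective migration together with PlexA. It was the least counted of the 8 genes, at 130, 125 and 122 CPM in TetAXXC and 126, 120 and 123 CPM in WT. The 6 values lay within 10.8 CPM of each other, and the log2 difference was 0.03 (SE 0.04, edgeR adjusted p = 0.701).

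Both plexin genes lie on the small chromosome 4 and are densely exonic, with 61.7% of the PlexA span and 62.4% of the PlexB span in exons. PlexA (FBgn0025741, 1009895 to 1027101, minus strand, 3 annotated coding sequences of 1505 to 1945 residues) was counted at 742, 687 and 798 CPM in TetAXXC and at 824, 709 and 775 CPM in WT. Its groups overlapped over most of their range, with a log2 difference of -0.05 (SE 0.08, edgeR adjusted p = 0.751). PlexB (FBgn0025740, 32478 to 43778, minus strand, 1 annotated protein of 2051 residues) was counted at 216, 187 and 240 CPM in TetAXXC and at 270, 211 and 241 CPM in WT. Each TetAXXC library was below the WT library of the same replicate number, by 0.54 CPM in replicate 3, but the groups overlapped. The means were 214 ± 26.7 CPM in TetAXXC and 240 ± 29.2 CPM in WT (SD, n = 3 each). With all 6 libraries this was the largest difference among the 8 genes, at -0.17 on the log2 scale (SE 0.11, edgeR adjusted p = 0.442), with an interval from 0.74-fold to 1.07-fold. It depended on single libraries in size, from -0.25 without TetAXXC replicate 3 or WT replicate 2 to -0.08 without WT replicate 1, where Sema1a at 0.09 was farther from 0. With the replicate block, the log2 fold change of PlexB was -0.17 (SE 0.057), with an interval from -0.30 to -0.036. The edgeR unadjusted p was then 0.0188 and the adjusted p 0.0787, which did not pass. The opposite strand of PlexB holds asRNA:CR45124, which shares 388 exonic bases with it and was counted at 25, 35 and 25 reads in TetAXXC and 41, 36 and 37 reads in WT, with an edgeR adjusted p of 0.339.

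Mical (FBgn0053208, chromosome 3R, 10001554 to 10042895, minus strand) has the most annotated forms, with 14 transcripts and proteins of 789 to 4743 residues. It was counted at 481, 471 and 493 CPM in TetAXXC and at 496, 518 and 486 CPM in WT. The highest value in TetAXXC lay above the lowest in WT, and the log2 difference was -0.05 (SE 0.04, edgeR adjusted p = 0.491). A same-strand gene of unstated function, CG31407, shares 136 exonic bases with Mical, which is 0.83% of the exonic length of Mical. CG31407 had 270, 102 and 82 counts in TetAXXC and 34, 12 and 7 counts in WT, which is 3.04 on the log2 scale (SE 0.68, edgeR adjusted p = 0.0285). Its highest count of each genotype was in replicate 1, the libraries with the highest summed testis genes. Between replicates 2 and 3 the orders differed in both genotypes. CG31407 was higher in replicate 2, and the summed testis genes were higher in replicate 3 (201 and 290 CPM in TetAXXC, 53.7 and 77.4 CPM in WT). In WT that order came from a single gene, bol, at 32.8 CPM in replicate 2 and 57.5 CPM in replicate 3. The WT sums are therefore no measure of how CG31407 and the rest of the testis list ran together. The part of testis RNA in the difference of CG31407 was not tested. Mical had 8566 to 9512 counts in a library, far more than CG31407, and how shared reads were assigned is not given in the sources used here.

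The levels of the genes were then compared per kb of exon, since longer transcripts yield more reads. The length used was that of all annotated exons merged, for Mical 16335 bases over 14 transcripts, and can exceed that of the transcripts present. The order and the family shares below rest on these lengths. By CPM alone, the means in TetAXXC and WT were higher for PlexA (742 and 770), Sema1a (542 and 550) and Mical (482 and 500) than for Sema2a (382 and 402). The secreted Sema2a stood highest, at 91.7 ± 3.86 CPM per kb in TetAXXC and 96.3 ± 3.23 CPM per kb in WT (SD, n = 3 each), which placed it at the 95.8th percentile of the 15676 genes with at least 1 count. Sema2b and PlexA followed, with means over the 6 libraries of 71.5 and 71.2 CPM per kb. Sema2b was above PlexA in 4 of 6 libraries, and their ranges overlapped. Sema1b and Sema1a came next, with means over the 6 libraries of 59.3 and 53.6 CPM per kb, and these ranges overlapped as well. PlexB, Mical and Sema5c formed the lowest group, with means of 32.2, 30.1 and 28.4 CPM per kb. Within this group each neighbour's range overlapped the next, and even Sema5c, the lowest, was at the 81.5th percentile. Ranges over the 6 libraries did not overlap between Sema2a and Sema2b, between PlexA and Sema1b, or between Sema1a and PlexB, so these steps in the order held in every library of both genotypes.

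**Figure D2:**
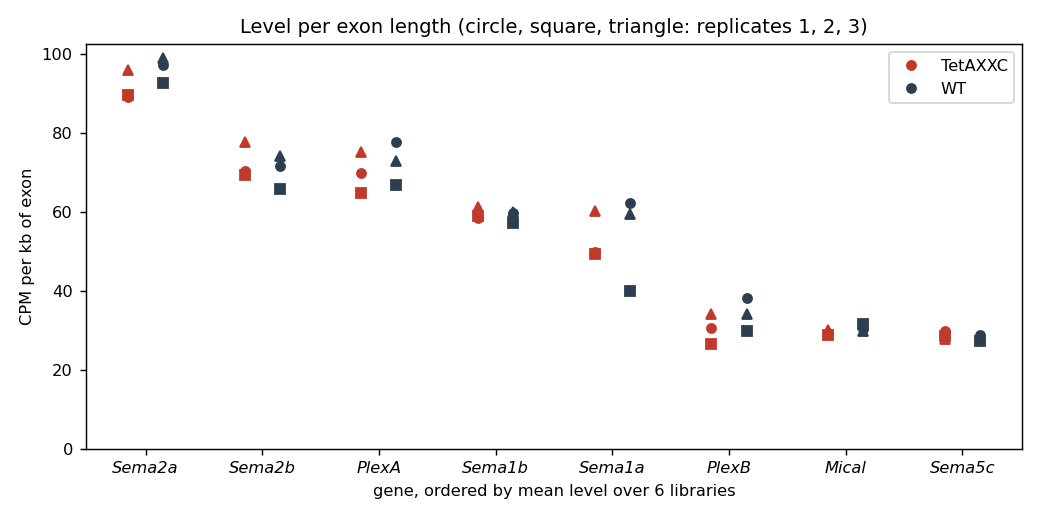
Level of each gene per kb of merged exon (CPM per kb, axis from 0), ordered by the mean over the 6 libraries. Sema2a lies at 89.2 to 99.0 CPM per kb in every library, above the range of each other gene, while PlexB, Mical and Sema5c lie between 26.5 and 38.2 CPM per kb.

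As a family, the 5 semaphorins summed to 306 ± 15.3 CPM per kb in TetAXXC and 308 ± 21.6 CPM per kb in WT (SD, n = 3 each). The secreted pair made up 53.7 ± 0.070% of that sum in TetAXXC and 54.3 ± 1.60% in WT. PlexA made up 69.8 ± 1.10% of the summed plexins in TetAXXC and 68.1 ± 1.03% in WT, more than PlexB in every library.

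Ratios between paralogs were compared because library scaling cancels in them, and 4 such ratios were tested. Between 3 and 3 libraries the smallest two-sided exact permutation p is 0.1, so none of the 4 could reach 0.05. The ratio of Sema2a to Sema2b was 1.27, 1.29 and 1.24 in TetAXXC replicates 1 to 3 and 1.36, 1.41 and 1.33 in WT replicates 1 to 3. Every TetAXXC library lay below every WT library, a difference of -0.11 in the mean log2 ratio with an exact permutation p of 0.1. Among single genes tested in these libraries, 32.7% had groups that do not overlap, and 25.9% of the abundant genes. The share among ratios of 2 genes was not computed, so these values are not a background for the ratio. The ratio of PlexA to PlexB was 2.28, 2.44 and 2.21 in TetAXXC and 2.03, 2.23 and 2.14 in WT. It was higher in TetAXXC in each same-numbered pair, but TetAXXC replicate 3 lay below WT replicate 2, and the difference of 0.11 in the mean log2 ratio had an exact permutation p of 0.2. The ratio of Sema1a to Sema1b was 0.89 ± 0.081 in TetAXXC and 0.91 ± 0.19 in WT, with an exact permutation p of 0.9 (SD, n = 3 each). The ratio of all semaphorins to both plexins was 3.05 ± 0.17 in TetAXXC and 2.89 ± 0.12 in WT, with an exact permutation p of 0.4 (SD, n = 3 each).

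**Figure D3:**
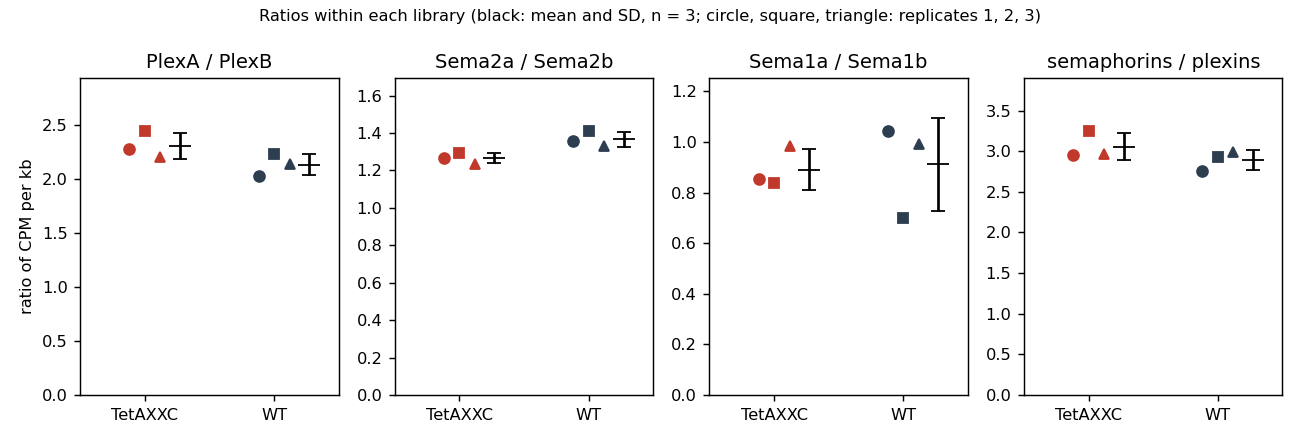
Ratios of CPM per kb within each library (axes from 0) for the plexins, the secreted semaphorins, the class 1 semaphorins, and all semaphorins over both plexins, with the mean and SD of each genotype in black. Sema2a to Sema2b is the only one of the 4 in which the genotypes do not overlap, at 1.24 to 1.29 in TetAXXC and 1.33 to 1.41 in WT.

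The 8 genes differed in how much they varied between libraries of the same genotype. The highest WT library of Sema1a was 1.56 times the lowest, and the highest TetAXXC library 1.22 times the lowest. The biological coefficient of variation of Sema1a, estimated by edgeR after the genotypes were fitted, was 0.147, against a trend of 0.064 at its abundance. It lay at the 96.1st percentile of the abundant genes. PlexB, with 0.101, lay at the 84.0th percentile, PlexA at the 59.1st and Sema2b at the 47.6th. Sema2a, Mical, Sema5c and Sema1b were more even than most, from the 23.3rd down to the 8.96th percentile.

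The same libraries were low or high for most of the 8 genes. WT replicate 2 was the lowest WT library for 7 of the 8 genes, Mical being the exception, whereas it was the lowest for 35.4% of 6264 abundant genes. These are the genes whose plain mean of log2 CPM over the 6 libraries was 4 or more, which differ slightly in number from the 6320 set by edgeR's own average. TetAXXC replicate 3 was the highest TetAXXC library for 7 of the 8, Sema5c being the exception, against 31.8% of those genes. The size differed between members: in WT replicate 2, Sema1a lay 0.40 below its group mean on the log2 scale, PlexB 0.18, PlexA 0.12 and Sema2b 0.10 below, and Mical lay 0.05 above. The 6 neuronal genes elav, nSyb, Syt1, brp, fne and Syx1A were read beside them. Their summed level was 3742, 3640 and 4437 CPM in TetAXXC replicates 1 to 3 and 4380, 3385 and 4260 CPM in WT replicates 1 to 3. All 6 were lowest in WT replicate 2 among the WT libraries, and 5 of 6 were highest in TetAXXC replicate 3 among the TetAXXC libraries. The exception in TetAXXC was nSyb, which was lowest in replicate 3. WT replicates 2 and 3 were nearly level for elav, at 458 and 459 CPM, and for nSyb, at 761 and 770 CPM. The gap was wider for Syt1, brp, fne and Syx1A, and widest in CPM for fne, at 764 and 1256 CPM. Between the genotypes, the edgeR adjusted p of the 6 neuronal genes was 0.0932 for nSyb and 0.813 or more for the others. For nSyb alone the groups did not overlap, at 703 to 725 CPM in TetAXXC and 761 to 784 CPM in WT. Such groups were found in 25.9% of the abundant genes. The 6 muscle genes on a list had their highest sum, 296 CPM, in WT replicate 2, against 137 and 148 CPM in WT replicates 1 and 3 and 139 to 181 CPM in TetAXXC. The sum of 7 fat body genes was also highest there, at 1617 CPM, against 1529 and 1174 CPM in WT replicates 1 and 3. Lists of 6 retina, 5 neuroblast and 5 hemocyte genes summed to 564 to 593, 27.4 to 34.6 and 297 to 308 CPM in TetAXXC. In WT these lists summed to 675 to 765, 19.0 to 25.3 and 311 to 330 CPM. With a trend with gene length taken out of each library, the SE of the log2 fold change fell for Sema1a, Sema1b, Sema2a, Sema2b, PlexA and PlexB. For PlexA it was 0.032, against 0.075 in the main fit. It rose for Mical, from 0.041 to 0.081, and was near level for Sema5c. The parts of sample makeup and of gene length in the spread of the members were not tested.

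**Figure D4:**
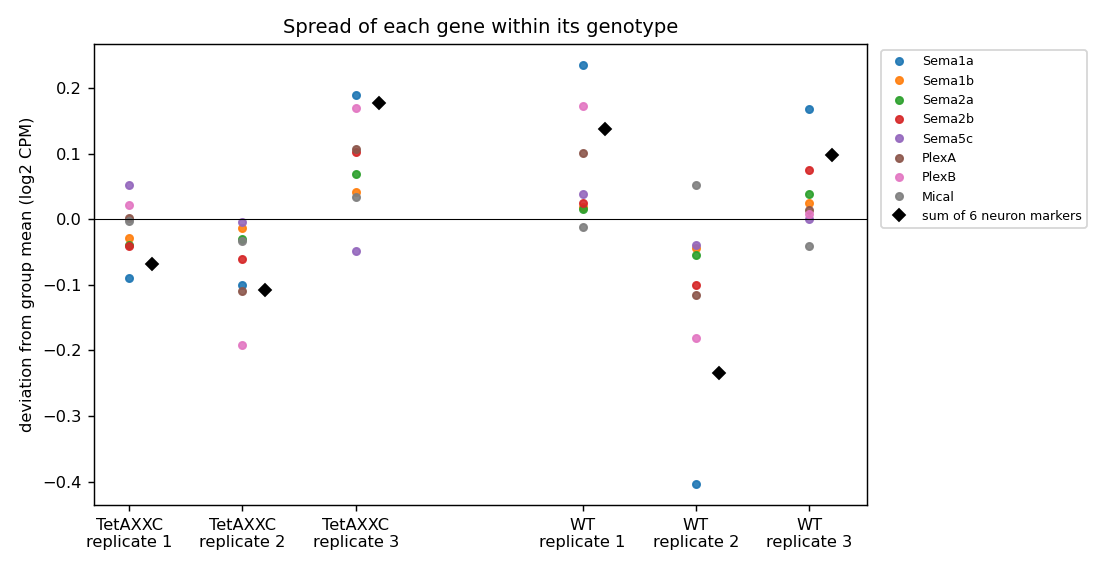
Deviation of each gene from the mean of its genotype (log2 CPM) in each library, with the summed level of the 6 neuronal genes as black diamonds. WT replicate 2 lies below 0 for every gene but Mical, farthest for Sema1a at -0.40, and TetAXXC replicate 3 lies above 0 for every gene but Sema5c.

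Genes that act with semaphorins and plexins were then examined from a list of 27. Of 26 tested, 2 passed the edgeR threshold, both lower in TetAXXC, and 4 had an unadjusted p under 0.05. This is 7.69% of the list, beside 15.2% of all genes (12.1% higher and 3.17% lower in TetAXXC). All 26 lie in the abundant range, where 7.61% passed and lower calls outnumbered higher ones (191 higher and 290 lower). That balance depended on the scaling, with 146 higher and 122 lower when the abundant genes alone were scaled and tested. For 9 of the 26 the groups stood apart, 3 higher and 6 lower in TetAXXC, beside 32.7% of all genes and 25.9% of the abundant genes. The median log2 fold change was -0.02, with 14 genes below 0 and 12 above, beside a median of -0.019 over the abundant genes.

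CRMP, the collapsin response mediator known from semaphorin signalling in vertebrate growth cones, was counted at 580, 590 and 585 CPM in TetAXXC and at 650, 674 and 652 CPM in WT. All TetAXXC libraries lay below all WT libraries. CRMP fell by 0.17 on the log2 scale (SE 0.04, edgeR adjusted p = 0.0260). The gene vari, which encodes a septate junction scaffold reported to act with Sema1a in motor axons, was counted at 181, 188 and 179 CPM in TetAXXC and at 199, 213 and 202 CPM in WT. These groups did not overlap either, and vari fell by 0.16 on the log2 scale (SE 0.04, edgeR adjusted p = 0.0345). Of the 6 fits that left out 1 library, both genes passed the threshold only without TetAXXC replicate 2. Without each of the other 5 libraries, their adjusted p lay between 0.0552 and 0.120. With limma-voom the adjusted p was 0.0742 for CRMP and 0.106 for vari. Septate junctions, where vari acts, are a feature of glia, and of the 6 glial genes given above 3 were lower in TetAXXC, repo was level and 2 had higher values without passing. The part of glial RNA in the difference of vari was not tested.

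At the membrane, the co-receptor genes otk and otk2 had log2 fold changes of 0.10 and 0.0039, and the receptor phosphatase gene Lar and the fat-like cadherin gene kug had -0.03 and -0.06. The receptor guanylyl cyclase gene Gyc76C, which genetically interacts with Sema1a in motor axons, had only 3 to 10 counts in a library and was not tested. Of the genes of the protein kinase A branch, which counteracts PlexA, the anchor nvy was at 0.02, and the subunits Pka-C1, Pka-R1 and Pka-R2 were at 0.01, -0.06 and -0.03. SelR, whose enzyme reverses the oxidation of actin by Mical, had 70.4 ± 3.53 CPM in TetAXXC and 72.9 ± 4.20 CPM in WT (SD, n = 3 each). Abl, a kinase reported to act on Mical, was at -0.04. In the actin branch, the cofilin phosphatase gene ssh had a log2 fold change of 0.12 and Rac1 of 0.09, and their edgeR adjusted p was 0.118 and 0.178. Once a trend with gene length was taken out of each library, both passed the threshold, ssh at 0.13 with an adjusted p of 0.0410 and Rac1 at 0.10 with 0.0442. The cofilin gene tsr, LIMK1, Pak, Rho1 and Cdc42 lay between -0.07 and 0.11 on the log2 scale. The other tested partners, trol, 14-3-3epsilon, pbl, RhoGAPp190, Rac2, Rap1 and Ras64B, lay between -0.06 and 0.18.

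**Figure D5:**
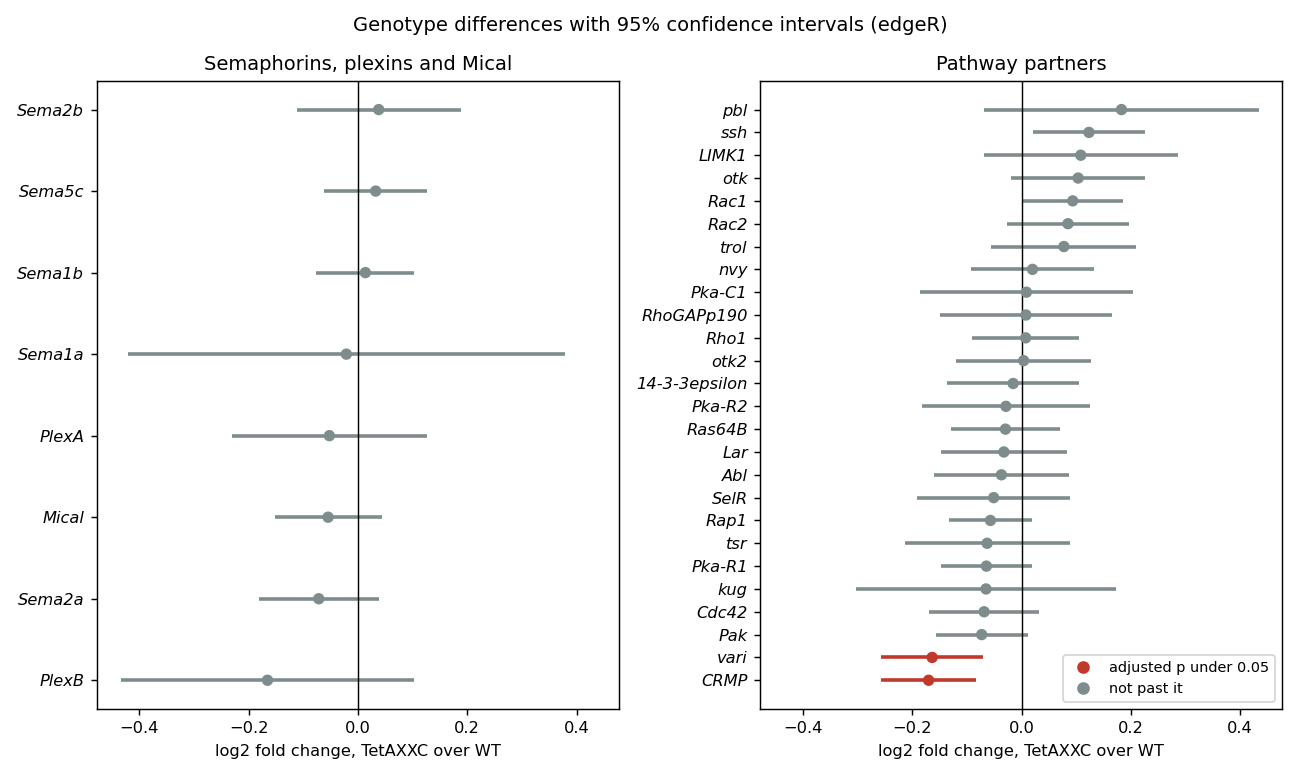
Log2 fold change of TetAXXC over WT with its 95% confidence interval from edgeR, for the 8 semaphorin, plexin and Mical genes (left) and the 26 tested partner genes (right). Each interval on the left crosses 0, and CRMP and vari, in red, are the partners with an adjusted p under 0.05.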

How the data were processed

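Raw read counts were deposited for each gene and library in 1 table, which per the file headers also gives exon coordinates and length. Trimmomatic 0.39, HISAT2, SAMtools, featureCounts and DESeq2 are named with builds BDGP6 and dm6, per the submitters' processing notes. The strand setting is not given in the sources used here. Start and end of all 8 genes equal those in the Ensembl annotation of BDGP6, which gave transcripts and coding sequences. Libraries were assigned to genotypes by title.

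Counts were tested with edgeR 4.0.16 in R 4.3.3: filterByExpr (minimum count 10, minimum total 15), TMM scaling, glmQLFit and glmQLFTest, two-sided. Benjamini-Hochberg adjustment ran over the 11198 genes tested, and adjusted p under 0.05 was the threshold. Standard errors were derived from coefficients and F statistics. Ratios used counts plus 0.5 per kb and exact permutation tests in scipy 1.17.1. The edgeR steps were tested on simulated data.

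The members and lists were chosen with earlier results of these data known. Named besides the members were Tet, elav and repo, pathway partners past the threshold, genes that overlap a member and pass it, and the 3 genes closest in profile to each of the 2 members with the smallest p. The antisense gene, ssh, Rac1, the partners named by role and the other neuronal, glial and testis genes named were chosen after their values were seen. The replicate numbers were taken to pair the libraries, since deviations from group means correlated across genes between same-numbered libraries at 0.652, 0.419 and 0.343. Differently numbered libraries were not compared in this way, so the pairing remains an assumption of the replicate block. Alternatives were DESeq2 1.42.0, limma-voom 3.58.1, RLE and upper-quartile factors, no low-count filter, abundant genes only, the length trend removed, the replicate block, and each library left out.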

Additional observations from a re-analysis of the deposited data

How the results depend on the processing

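Over 15 alternatives for each of the 8 genes, 0 of 120 values passed the edgeR, DESeq2 or limma-voom threshold, 109 kept their direction and 11 changed it. The smallest adjusted p was 0.0760, for PlexB. With the replicate block, PlexB kept its log2 fold change of -0.17 with a standard error of 0.057, an unadjusted p of 0.0188 and an adjusted p of 0.0787, and the block changed no call of a member or partner. Direction changes were confined to Sema1a, Sema1b and Sema2b: Sema1a was at 0.010 with the length trend removed and at 0.024 with the block as well, a combination chosen after seeing the data.

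The number of changed genes was 1707, and 130 under limma-voom (56 higher and 74 lower in TetAXXC, against 1352 and 355) and 268 with genes of at least 4 log2 CPM only. Tet was past the threshold with the length trend removed (adjusted p 0.0487) and with the block as well (0.17 on the log2 scale, adjusted p 0.0176), and in no other alternative. Pathway partners past the threshold numbered 2, against 0 under limma-voom and among the abundant genes, 1 with upper-quartile factors (CRMP), 4 with the length trend removed and 5 with the block added to it (otk being the fifth). The causes were not tested. In the paired exact test of same-numbered libraries no ratio could go below 0.25, and the p of the plexin ratio and of the secreted semaphorin ratio was 0.25.

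Leaving out 1 library gave 54 to 2095 changed genes, the lowest without WT replicate 2 and 104 without WT replicate 3, 0 changed members in each case and 0 to 2 changed partners. Log2 fold changes then ranged from -0.20 to 0.093 for Sema1a, from -0.011 to 0.028 for Sema1b, from -0.014 to 0.059 for Sema2b, from -0.25 to -0.078 for PlexB, from -0.11 to -0.0027 for PlexA, from -0.10 to -0.031 for Mical, from -0.11 to -0.052 for Sema2a and from 0.0023 to 0.057 for Sema5c. The log2 difference of the Sema1a to Sema1b ratio ranged from -0.19 to 0.094, and the other 3 ratios kept their direction in all 6 fits. In size they ranged from 0.072, without TetAXXC replicate 2, to 0.15 for PlexA to PlexB, from -0.13 to -0.087 for Sema2a to Sema2b, and for semaphorins to plexins from 0.033 without TetAXXC replicate 2 and 0.044 without WT replicate 1 to 0.10. With 2 libraries against 3 the smallest exact p is 0.2 for these ratios.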

Other observations

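Sema2a and PlexB had the smallest unadjusted p of the 8 genes, and the genes with the most similar course over the 6 libraries were looked up among 6263 others with a plain mean of 4 log2 CPM or more. Likeness was measured as the root mean square difference of centred log2 CPM. The closest to Sema2a were msn, 14-3-3zeta and Fas1, at 0.014, 0.014 and 0.015. The closest to PlexB were CG42232, Teh3 and CG42795, at 0.025, 0.032 and 0.039. These 6 genes had log2 fold changes of -0.19 to -0.047, with edgeR adjusted p of 0.290 to 0.602.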
